A study of Homo sapiens with 2 samples.

Results

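The 34 genes described here encode the enzymes of glycolysis, the transporters and regulators around it, and other products of the transcriptional response to low oxygen. They were taken by gene symbol from the 36601 genes counted. There were 16 genes of glycolytic enzymes, 6 genes of transport and flux control, 11 genes induced by hypoxia-inducible factor (HIF) that are not part of glycolysis, called HIF-only targets here, and HIF1A. All 34 symbols were found, and 31 reached the floor for measured genes, 5 UPM (unique molecular identifiers, UMIs, per 1000000 of a library) in either library. HK2, ADM and EGLN3 were below it in both libraries.

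The cells were HT1080, an established human fibrosarcoma line with its genotype given as wildtype, in both groups. The 4B4 group received 2 µg/ml of 4B4, an antibody that inhibits β1 integrin, in the medium, and the control group did not, with no other antibody named in its label. Both groups were spheroids of 2000 cells, about 50 to a sample, embedded in 500 µl of collagen and left to invade for 72 h. Gels were dissolved with collagenase and cells were dispersed with trypsin before 10x Genomics 3′ libraries were made. Each group was a single library, so antibody, culture and library cannot be told apart, and no test of the treatment could be made. The question put to these genes was whether glycolytic enzymes and HIF-only targets had the same levels in both libraries and in the same cells.

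The 4B4 library kept 1385 of 1759 barcodes and 116451080 UMIs, and the control library 3402 of 3642 barcodes and 127218114 UMIs. A kept 4B4 cell had a median of 68556 UMIs and a kept control cell 32914, a ratio of 2.08. The median mitochondrial share of UMIs was 7.63% in 4B4 cells and 9.16% in control cells, and the libraries shared 2 barcodes. Phases, called in cells of at least 17000 UMIs, put 1144 of 1311 4B4 cells and 2066 of 3099 control cells in G1. The 5 markers chosen for this line summed to 4752 UPM in the 4B4 library and 4542 UPM in the control library. FN1 was at 1185 UPM in the 4B4 library and 681 UPM in the control library, S100A6 at 2004 and 1807 UPM, VIM at 1392 and 1830 UPM, CD44 at 139 and 177 UPM, and CDH2 at 32.6 and 47.1 UPM. Markers of other cell types summed to 2.00 and 2.44 UPM for 4 epithelial genes, with KRT5 at 0 in both, and to 5.53 and 4.86 UPM for 4 fibroblast genes in the 4B4 and control libraries. The 4 haematopoietic markers summed to 39.5 UPM in the 4B4 library and 27.7 UPM in the control library, of which CD68 made 38.4 UPM in the 4B4 library and 26.5 UPM in the control library, while PTPRC, which defines leukocytes, was at 0.80 UPM in the 4B4 library and 0.79 UPM in the control library. The 3 endothelial markers summed to 47.7 UPM in the 4B4 library and 32.6 UPM in the control library, of which PECAM1 made 45.8 UPM in the 4B4 library and 30.3 UPM in the control library, while CDH5 was at 0.29 UPM in the 4B4 library and 0.54 UPM in the control library. Whether cells of these types were present and bore on the values given here was not tested.

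Glycolysis splits glucose into pyruvate in the cytosol and yields ATP without oxygen. Lactate dehydrogenase then turns pyruvate into lactate, which leaves the cell through monocarboxylate transporters. In oxygenated cells, prolyl hydroxylases mark the HIF alpha subunits for destruction through the VHL protein, and when oxygen is scarce the subunits accumulate, pair with ARNT and bind short elements with the core ACGTG or GCGTG in many promoters and enhancers. Genes of nearly every glycolytic step have been described as HIF targets, as have genes for vessel growth, acid balance and mitophagy. The inner cells of tumour spheroids are a common model of limited oxygen supply, and the level of HIF1A protein, which oxygen sets, is not measured by RNA.

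Promoter sequences are shown for 5 members to print the HIF core motif in genes that followed the HIF-only targets to different extents in the cell-by-cell comparison, with no relation of motif count to that extent tested: LDHA and PGK1 did, GAPDH hardly did, and CA9 and ANKRD37 are HIF-only targets themselves. Each is a RefSeq window on GRCh38.p14 of 300 bases, from 250 before to 50 after an annotated start, written 5′ to 3′ on the strand of the gene. The windows of PGK1, GAPDH and ANKRD37 lie within the annotated genes, which start upstream of them at 77910739, 6533927 and 185396021. Which start these cells used was not tested, so a window need not be the main promoter of its gene. Capitals mark ACGTG or GCGTG on either strand, so CACGT and CACGC are matches on the other strand and the palindrome CACGTG is a match to ACGTG on both.
LDHA, chr11:18394313-18394612, plus strand: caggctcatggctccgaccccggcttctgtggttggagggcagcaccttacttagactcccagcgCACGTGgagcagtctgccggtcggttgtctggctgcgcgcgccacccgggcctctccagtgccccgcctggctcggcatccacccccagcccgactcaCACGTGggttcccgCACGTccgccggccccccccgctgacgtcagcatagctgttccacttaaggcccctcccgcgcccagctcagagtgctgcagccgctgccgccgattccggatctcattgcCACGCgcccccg
PGK1, chrX:78103998-78104297, plus strand: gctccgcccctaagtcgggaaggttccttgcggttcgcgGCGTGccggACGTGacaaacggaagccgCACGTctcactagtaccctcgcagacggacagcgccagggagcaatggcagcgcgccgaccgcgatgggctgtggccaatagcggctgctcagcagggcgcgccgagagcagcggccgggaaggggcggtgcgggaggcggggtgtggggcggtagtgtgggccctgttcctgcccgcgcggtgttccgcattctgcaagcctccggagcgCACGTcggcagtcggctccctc
GAPDH, chr12:6535014-6535313, plus strand: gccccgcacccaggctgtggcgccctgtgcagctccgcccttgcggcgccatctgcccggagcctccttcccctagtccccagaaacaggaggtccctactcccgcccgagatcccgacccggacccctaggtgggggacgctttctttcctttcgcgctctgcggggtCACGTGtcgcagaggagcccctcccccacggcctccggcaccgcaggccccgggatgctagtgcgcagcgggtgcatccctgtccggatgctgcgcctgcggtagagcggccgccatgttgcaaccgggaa
CA9, chr9:35673678-35673977, plus strand: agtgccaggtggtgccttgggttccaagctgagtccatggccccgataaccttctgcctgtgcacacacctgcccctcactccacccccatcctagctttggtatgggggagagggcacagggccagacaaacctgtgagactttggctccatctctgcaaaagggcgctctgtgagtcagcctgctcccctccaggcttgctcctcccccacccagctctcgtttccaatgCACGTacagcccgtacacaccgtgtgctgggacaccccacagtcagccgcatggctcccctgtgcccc
ANKRD37, chr4:185396591-185396890, plus strand: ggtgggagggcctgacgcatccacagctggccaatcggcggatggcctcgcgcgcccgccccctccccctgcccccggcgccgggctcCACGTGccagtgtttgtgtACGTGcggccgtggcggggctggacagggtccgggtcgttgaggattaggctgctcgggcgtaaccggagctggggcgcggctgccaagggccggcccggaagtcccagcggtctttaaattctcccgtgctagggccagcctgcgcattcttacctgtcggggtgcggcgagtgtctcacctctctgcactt
Counted on both strands, ACGTG occurred 5 times in the LDHA window shown, 3 times in those of PGK1 and ANKRD37, 2 times in that of GAPDH, as a single CACGTG, and 1 time in that of CA9. Another LDHA window, chr11:18396101-18396400, held 0 matches to ACGTG. Of the 34 members, 30 matched a window and VEGFA, SLC2A3, BNIP3L and NDRG1 did not. Over the 60 windows of these 30 genes, some of which overlap, ACGTG was found in 23, or 38.3%, against 21.4% of all 35116 windows of this length. GCGTG was found in 43.3% of the members' windows and 36.5% of all windows, and CACGTG, which contains ACGTG, in 13.3% and 7.26%. A match is a run of letters and was not shown to be bound in these cells.

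Most of these genes had modestly larger levels in the 4B4 library. Of the 31 measured members, 26 had a log2 ratio of 4B4 over control above 0 and 5 below it, against 48.1% above 0 among all 11359 measured genes. Only 2 members, ALDOA and VEGFA, were higher by at least 1.5-fold with a counting interval above 1, where 2.1% of all measured genes were called higher by this rule. None was lower by it, where 5.82% of all measured genes were called lower. At a difference of at least 25% of the smaller level, 14 members were higher, with a background of 8.94%, and 1 member, SLC2A1, was lower, with a background of 13.3%. None passed a ratio of 2 in either direction, where 0.379% of all measured genes were higher and 2.2% lower. With a floor of 20 UPM, 2 members were higher and 0 lower at 1.5-fold, with backgrounds of 1.8% and 4.42%. By the counting interval alone, 24 members lay above a ratio of 1 and 4 below it, with backgrounds of 35.2% and 38.3%, so that rule sorts most genes of any kind. The median log2 ratio was 0.32 over the 15 measured enzymes, 0.30 over the 9 measured HIF-only targets and 0.085 over the 6 genes of transport and flux control, against -0.0089 over all measured genes, whose central 80% ran from -0.40 to 0.30. Summed UMIs of the 16 enzymes were 11239 UPM in the 4B4 library and 9131 UPM in the control library, against 645 UPM in the 4B4 library and 519 UPM in the control library for the 11 HIF-only targets. The 6 transport and flux control genes summed to 264 UPM in the 4B4 library and 242 UPM in the control library. These sums lean on a few genes, since GAPDH alone held 3994 of the 11239 UPM in the 4B4 library and 3123 of the 9131 UPM in the control library. On GRCh38, with positions from GENCODE release 29, ALDOA (ENSG00000149925) lies on chromosome 16 from 30064164 to 30070457, VEGFA (ENSG00000112715) on chromosome 6 from 43770184 to 43786487 and SLC2A1 (ENSG00000117394) on chromosome 1 from 42925375 to 42959176. Counts were per gene, so the values belong to whole genes and to no exon or UTR. Intervals at 95% cover counting error only and are narrow at these depths, so a ratio outside its interval says nothing of variation between cultures.

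**Figure D1:**
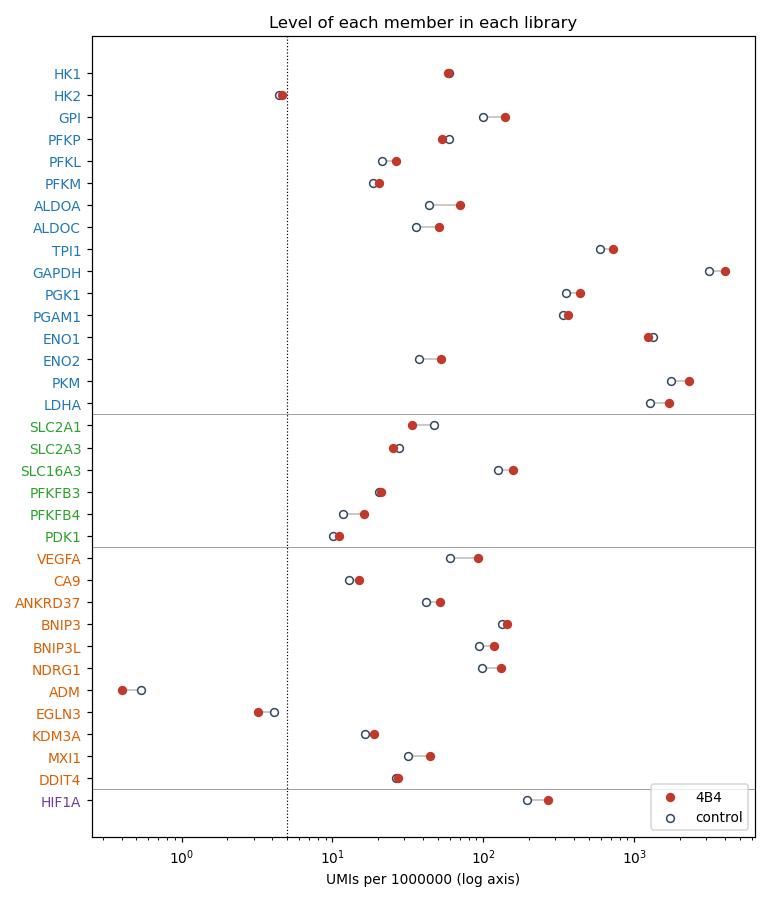
Level of each member in UMIs per 1000000 on a log axis in the 4B4 library (filled red) and the control library (open blue), grouped as glycolytic enzymes, transport and flux control, HIF-only targets and HIF1A from top to bottom, with the floor of 5 UPM dotted. HK2, ADM and EGLN3 lie left of the floor in both libraries, and GAPDH is the most abundant member at 3994 UPM in the 4B4 library and 3123 UPM in the control library.

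Glucose enters through facilitative transporters, and both members of this step had log2 ratios below 0. SLC2A1, which encodes GLUT1, the widespread basal transporter and a much-used hypoxia marker, was at 33.7 UPM (32.6 to 34.8) in the 4B4 library and 46.8 UPM (45.7 to 48.0) in the control library. The 4B4 level was the smaller of the pair, and the log2 ratio of -0.48 (-0.53 to -0.42) was below 0 under all 12 other settings, from -0.56 to -0.32. At equal depth, 38.8% of 4B4 cells and 48.8% of control cells had a UMI of SLC2A1. SLC2A3, which encodes the high-affinity transporter GLUT3, was at 25.2 UPM (24.3 to 26.1) in the 4B4 library and 27.6 UPM (26.6 to 28.5) in the control library. Its log2 ratio of -0.13 ran from -0.39 to 0.61 over the other settings, so its direction rests on the setting. SLC2A1 made 57.2% of the UMIs of both transporters in the 4B4 library and 63.0% in the control library. UMIs of 3′ libraries count captured molecules and are not divided by length. Whether the genes of a step were captured and counted equally well was not tested, so such shares compare counted UMIs.

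The first steps, which trap and rearrange glucose, differed gene by gene. HK1, the main hexokinase of most tissues, had 58.4 UPM (57.0 to 59.8) in the 4B4 library and 58.9 UPM (57.6 to 60.3) in the control library, intervals that overlap. HK2, the hexokinase induced in many tumours, had 4.63 UPM in the 4B4 library and 4.39 UPM in the control library, and 7.55% of 4B4 cells and 6.07% of control cells had a UMI of it at equal depth. GPI, which converts glucose 6-phosphate to fructose 6-phosphate, was at 139 UPM (137 to 141) in the 4B4 library and 99.6 UPM (97.8 to 101) in the control library. Its log2 ratio of 0.48 stayed between 0.37 and 0.55 under the 12 other settings.

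Phosphofructokinase, the main control point of the pathway, is made from 3 genes whose ratios differed in sign over all kept cells. PFKP, the platelet type and the most abundant of them here, was at 53.1 UPM (51.8 to 54.5) in the 4B4 library and 59.2 UPM (57.8 to 60.5) in the control library. PFKL, the liver type, was at 26.6 UPM (25.6 to 27.5) in the 4B4 library and 21.3 UPM (20.5 to 22.1) in the control library. PFKM, the muscle type, was at 20.3 UPM (19.5 to 21.1) in the 4B4 library and 18.5 UPM (17.8 to 19.3) in the control library. PFKP thus had the smaller level in the 4B4 library and PFKL the larger, with log2 ratios of -0.16 and 0.32, and neither passed 1.5-fold. The log2 ratio of PFKP was -0.88 in cells with under 5% mitochondrial UMIs and 0.26 in those with 10% to 20%. The sign for PFKP thus rests on the cells taken. That of PFKL was above 0 in both classes, at 0.41 and 0.16. The share of phosphofructokinase UMIs from PFKP was 53.1% (52.2% to 54.0%) in the 4B4 library and 59.8% (58.9% to 60.6%) in the control library, and that from PFKL 26.6% and 21.5%.

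Aldolase cleaves fructose 1,6-bisphosphate, and both of its measured genes had larger levels in the 4B4 library. ALDOA, the widespread aldolase, was at 70.4 UPM (68.8 to 71.9) in the 4B4 library and 43.8 UPM (42.6 to 44.9) in the control library. With a log2 ratio of 0.68 (0.64 to 0.73) it was the only enzyme called higher, and 61.1% of 4B4 cells and 48.8% of control cells had a UMI of it at equal depth. Over G1 cells alone its log2 ratio was 0.56, short of 1.5-fold. The ALDOA ratio was 0.89 in cells with the nuclear RNA MALAT1 under 5000 UPM and 0.096 in those over 20000 UPM. It was 0.91 in cells with under 5% mitochondrial UMIs and 0.26 in those with 10% to 20%. The annotation places another gene, AC093512.2, over ALDOA on the same strand, with 0.72 UPM in the 4B4 library and 0.88 UPM in the control library, so the level of ALDOA is uncertain where reads could belong to either. ALDOC, the brain-type aldolase, was at 50.7 UPM (49.4 to 52.0) in the 4B4 library and 35.5 UPM (34.5 to 36.6) in the control library, a log2 ratio of 0.51. It overlaps AC005726.1, at 3.52 UPM in the 4B4 library and 4.31 UPM in the control library, in the same way.

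The later steps are run by abundant enzymes whose ratios spread from -0.11 to 0.49. TPI1, which interconverts the triose phosphates, was at 725 UPM (720 to 730) in the 4B4 library and 590 UPM (586 to 594) in the control library. GAPDH, which oxidises glyceraldehyde 3-phosphate and is a common reference gene, was at 3994 UPM (3983 to 4006) in the 4B4 library and 3123 UPM (3113 to 3133) in the control library. PGK1, which makes the first ATP of the pathway, was at 435 UPM (431 to 439) in the 4B4 library and 356 UPM (352 to 359) in the control library. These 3 genes had like log2 ratios over all kept cells, 0.30, 0.35 and 0.29. In cells with under 5% mitochondrial UMIs TPI1, GAPDH and PGK1 had 0.26, 0.33 and 0.23. In those with 5% to 10% they had 0.08, 0.01 and 0.27, and in those with 10% to 20% 0.07, -0.04 and 0.09. PGAM1, the phosphoglycerate mutase, had a smaller log2 ratio over all kept cells, 0.10, at 362 UPM in the 4B4 library and 337 UPM in the control library. PGK1 overlaps ATP7A on the same strand, at 16.1 UPM in the 4B4 library and 11.8 UPM in the control library, and PGAM4 on the other, at 0.15 UPM in the 4B4 library and 0.12 UPM in the control library. Of all 34 members, 6 overlap another protein-coding gene of the table on the same strand and 7 on the opposite strand, and the strand setting of the counting is not given in the sources used here.

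Enolase, which makes phosphoenolpyruvate, showed a split between its genes. ENO1, the widespread alpha enolase, was at 1235 UPM (1229 to 1242) in the 4B4 library and 1332 UPM (1326 to 1338) in the control library. ENO2, the gamma enolase best known from neurons, was at 52.5 UPM (51.2 to 53.8) in the 4B4 library and 37.5 UPM (36.5 to 38.6) in the control library. The log2 ratios were -0.11 for ENO1, which turned above 0 in 2 of 12 other settings, and 0.49 for ENO2, which stayed above 0 in all 12. ENO2 was 4.08% (3.98% to 4.18%) of enolase UMIs in the 4B4 library and 2.74% (2.66% to 2.82%) in the control library. ENO2 overlaps LRRC23 on the same strand, at 34.3 UPM in the 4B4 library and 33.0 UPM in the control library, so its level and this share are uncertain where reads could belong to either.

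The last enzymes were among the most abundant members. PKM, whose M2 splice form is common in tumours though splice forms were not counted here, was at 2319 UPM (2310 to 2327) in the 4B4 library and 1739 UPM (1732 to 1747) in the control library. LDHA, the lactate dehydrogenase subunit that favours lactate formation, was at 1693 UPM (1686 to 1701) in the 4B4 library and 1275 UPM (1269 to 1282) in the control library. Both had a log2 ratio of 0.41, above 0 under all 12 other settings, from 0.32 to 0.55 for PKM and from 0.35 to 0.65 for LDHA. In cells with the nuclear RNA MALAT1 over 20000 UPM, a class outside these settings, PKM had -0.0052 and LDHA 0.29. In cells with MALAT1 under 5000 UPM, PKM had 0.52 and LDHA 0.47. Of the UMIs of LDHA and LDHB together, LDHA made 68.1% (67.9% to 68.2%) in the 4B4 library and 62.1% (61.9% to 62.2%) in the control library. SLC16A3, which encodes MCT4, the lactate exporter of glycolytic cells, was at 157 UPM (155 to 159) in the 4B4 library and 125 UPM (123 to 127) in the control library, a log2 ratio of 0.33. Of 4B4 cells 88.2% and of control cells 80.2% had a UMI of SLC16A3 at equal depth.

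**Figure D2:**
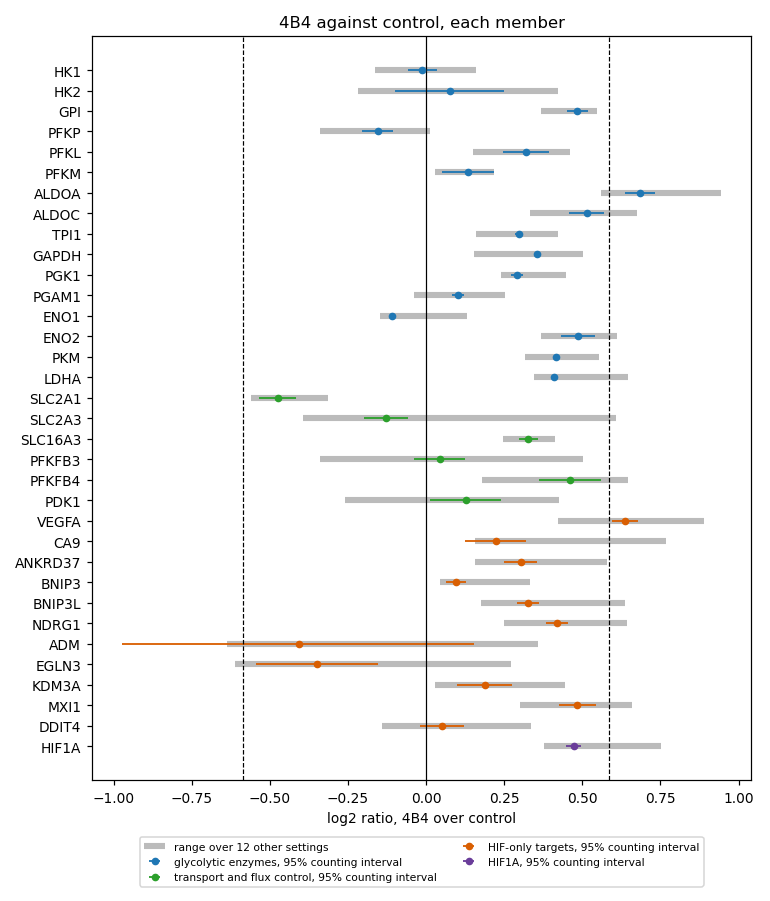
Log2 ratio of 4B4 over control for each member, with points and thin bars for the value and its 95% counting interval and grey bars for the range over 12 other settings of cells, depth, weight and scaling. Dashed lines mark 1.5-fold. Only ALDOA (0.68) and VEGFA (0.64) lie beyond them, and SLC2A1 at -0.48 is the lowest measured member.

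Flux into and out of glycolysis is also set by kinases that act on it from the side. PFKFB3 and PFKFB4 make and remove fructose 2,6-bisphosphate, the strongest activator of phosphofructokinase. PFKFB3 was at 21.0 UPM (20.2 to 21.9) in the 4B4 library and 20.4 UPM (19.6 to 21.2) in the control library, and PFKFB4 at 16.2 UPM (15.5 to 17.0) in the 4B4 library and 11.8 UPM (11.2 to 12.4) in the control library. Only PFKFB4 had intervals that did not overlap between the libraries, with a log2 ratio of 0.46 and 43.5% of the UMIs of the pair in the 4B4 library against 36.6% in the control library. PFKFB4 also overlaps UCN2 in the annotation, at 7.15 UPM in the 4B4 library and 4.48 UPM in the control library. PDK1, which inhibits pyruvate dehydrogenase and so holds pyruvate back from mitochondria, was at 10.98 UPM (10.4 to 11.6) in the 4B4 library and 10.1 UPM (9.52 to 10.6) in the control library. Its log2 ratio of 0.13 ran from -0.26 to 0.43 over the other settings.

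Among the HIF-only targets, VEGFA led. VEGFA, the main growth factor of blood vessels, was at 92.8 UPM (91.1 to 94.6) in the 4B4 library and 59.7 UPM (58.4 to 61.1) in the control library. Its log2 ratio of 0.64 (0.59 to 0.68) was the only one in this group called higher, and 68.6% of 4B4 cells and 53.1% of control cells had a UMI of it at equal depth. Over G1 cells alone the ratio was 0.42, short of 1.5-fold, and the range over the 12 other settings was 0.42 to 0.89. CA9, a surface carbonic anhydrase that buffers acid and is scarcely made with ample oxygen, was at 15.1 UPM (14.4 to 15.8) in the 4B4 library and 12.9 UPM (12.3 to 13.6) in the control library. Its log2 ratio was 0.22 over all kept cells, but 0.65 over cells of 20000 to 60000 UMIs and 0.77 over those of 60000 to 120000. The CA9 ratio was 0.44 in cells with the nuclear RNA MALAT1 under 5000 UPM and -0.24 in those over 20000 UPM. It was 0.24 in cells with under 5% mitochondrial UMIs and -0.055 in those with 10% to 20%.

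ANKRD37, a small ankyrin-repeat protein whose gene is a direct HIF target, was at 51.5 UPM (50.2 to 52.9) in the 4B4 library and 41.8 UPM (40.7 to 42.9) in the control library. NDRG1, a stress protein tied to differentiation and a common hypoxia marker, was at 131 UPM (129 to 133) in the 4B4 library and 98.005 UPM (96.3 to 99.7) in the control library. MXI1, a MAX-binding repressor that opposes MYC, was at 44.2 UPM (43.0 to 45.4) in the 4B4 library and 31.6 UPM (30.6 to 32.6) in the control library. All 3 had larger levels in the 4B4 library, with log2 ratios of 0.30, 0.42 and 0.48 that stayed above 0 under the 12 other settings. The mitophagy receptors differed between themselves: BNIP3 was at 143 UPM (140 to 145) in the 4B4 library and 133 UPM (131 to 135) in the control library, a log2 ratio of 0.10. BNIP3L was at 118 UPM (116 to 120) in the 4B4 library and 94.1 UPM (92.5 to 95.8) in the control library, a log2 ratio of 0.33.

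KDM3A, a histone H3 lysine demethylase, was at 18.8 UPM (18.1 to 19.7) in the 4B4 library and 16.6 UPM (15.9 to 17.3) in the control library. DDIT4, an inhibitor of mTORC1 signalling that also responds to other stresses, was at 27.2 UPM (26.3 to 28.2) in the 4B4 library and 26.3 UPM (25.4 to 27.2) in the control library. Their log2 ratios were 0.19 and 0.05, and that of DDIT4 turned below 0 in 1 of 12 other settings. In classes outside these settings the DDIT4 ratio differed in sign. It was 0.36 in cells with MALAT1 under 5000 UPM and -0.47 in those over 20000 UPM. In cells with under 5% mitochondrial UMIs it was 0.47, and in those with 10% to 20% it was -0.19. EGLN3, which encodes the prolyl hydroxylase PHD3, was under the floor at 3.20 UPM (2.89 to 3.55) in the 4B4 library and 4.08 UPM (3.74 to 4.45) in the control library. ADM, which encodes the vessel-dilating peptide adrenomedullin, was hardly detected, with 47 UMIs among 1385 4B4 cells and 68 UMIs among 3402 control cells. Both are often among the strongly induced genes in hypoxia, and neither is counted as measured here.

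HIF1A itself was at 269 UPM (266 to 272) in the 4B4 library and 194 UPM (191 to 196) in the control library. The log2 ratio of 0.47 (0.45 to 0.50) was above 0 under all 12 other settings, from 0.38 to 0.75. Genes of oxygen sensing and the other HIF subunits, which were not members, gave no call in either direction among 16 measured of 17, with a median log2 ratio of 0.11. EPAS1, which encodes HIF2 alpha, was at 73.6 UPM in the 4B4 library and 49.6 UPM in the control library, a log2 ratio of 0.57. HIF1A made 78.5% of the UMIs of both alpha subunits in the 4B4 library and 79.6% in the control library. VHL, at 19.1 UPM in the 4B4 library and 14.8 UPM in the control library, and its partner ELOB, at 710 UPM in the 4B4 library and 507 UPM in the control library, had log2 ratios of 0.36 and 0.49. ARNT2 had -0.34.

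Few genes of neighbouring pathways were called. Of 41 further hypoxia-induced genes, 27 were measured, 2 were higher and 1 was lower, with a median log2 ratio of 0.10. Over all measured genes 2.1% were called higher and 5.82% lower, which is the background for each list given here. BHLHE40 and BHLHE41, repressors that also act in the circadian clock, were higher, with log2 ratios of 0.59 and 0.92, and CSRP2, a LIM-domain protein, was lower at -0.63. P4HA1, a collagen prolyl hydroxylase, was at 114 UPM in the 4B4 library and 80.4 UPM in the control library, a log2 ratio of 0.50. Of 26 other enzymes and isozymes of glycolysis, 10 were measured, and SLC2A12, a glucose transporter, was the 1 called higher, at 11.2 UPM in the 4B4 library and 6.71 UPM in the control library. PGM1, which joins glycogen to glycolysis, had a log2 ratio of 0.38, PGM2 had -0.55 and TIGAR, a fructose 2,6-bisphosphatase, -0.32.

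The entry of pyruvate into mitochondria also showed a gene apart from its list. PDP1, the phosphatase that switches pyruvate dehydrogenase on and so opposes PDK1, was at 80.1 UPM (78.5 to 81.7) in the 4B4 library and 139 UPM (137 to 141) in the control library. With a log2 ratio of -0.80 it was the 1 of 13 measured genes of pyruvate entry called lower, and PDK2, PC and PDHB had 0.37, 0.45 and 0.25. None of 17 genes of the tricarboxylic acid cycle was called in either direction. Their median log2 ratio was 0.046, with MDH2 at 0.23, IDH3G at 0.20, FH at -0.20 and SUCLG2 at -0.28.

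Levels were then set against cell depth, since the 4B4 cells were deeper. In both libraries the HIF-only sum was larger in shallow cells, and at each depth the 4B4 value was above the control value. In cells of 20000 to 40000 UMIs the HIF-only targets summed to 803 UPM in the 4B4 library and 555 UPM in the control library, a log2 ratio of 0.53. In cells of 90000 to 120000 UMIs they summed to 617 UPM in the 4B4 library and 414 UPM in the control library, a log2 ratio of 0.58. The ratio of the HIF-only sum lay between 0.52 and 0.58 in all 5 depth classes from 20000 UMIs up, against 0.31 over all kept cells. The enzyme sum had log2 ratios of 0.24 to 0.44 in these classes, against 0.30 over all kept cells, and the ratio of HIF1A ran from 0.53 to 1.16. The class above 120000 UMIs rests on 271 4B4 cells and only 14 control cells.

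Cells under 20000 UMIs went another way. There the enzymes summed to 6731 UPM in 84 4B4 cells and 10845 UPM in 533 control cells, a log2 ratio of -0.69, while the HIF-only targets summed to 1286 UPM in these 4B4 cells and 704 UPM in these control cells, a log2 ratio of 0.87. SLC2A3 was at 277 UPM in these 4B4 cells and 38.9 UPM in these control cells, and NDRG1 at 420 UPM in these 4B4 cells and 143 UPM in these control cells. The same 4B4 cells had a median of 6864 UMIs, the control cells 16484, and MALAT1, an RNA kept in the nucleus, stood at 50561 UPM in the 4B4 cells and 14585 UPM in the control cells. The part of damaged cells or free nuclei in these values was not tested.

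**Figure D3:**
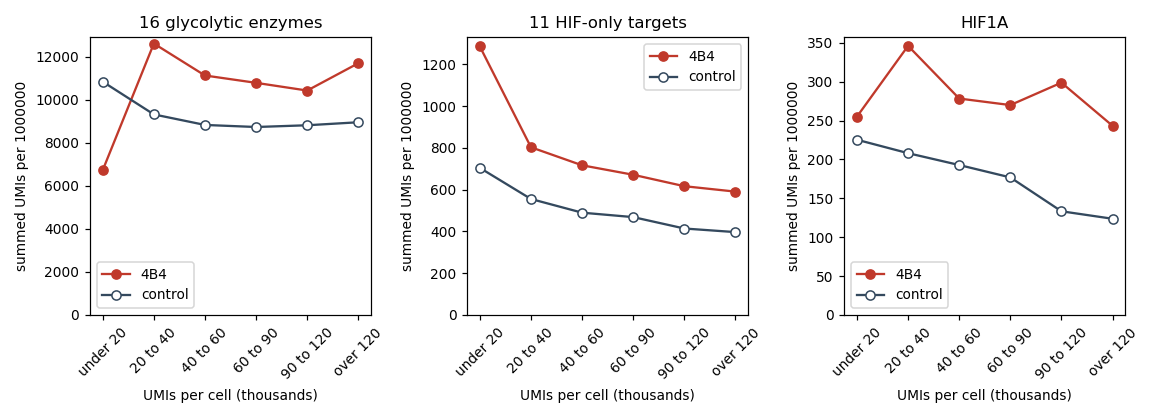
Summed level of the 16 enzymes, of the 11 HIF-only targets and of HIF1A in UMIs per 1000000 by the number of UMIs per cell, in the 4B4 library (filled red) and the control library (open blue). From 20000 UMIs up, the 4B4 line lies above the control line in all 3 panels, and under 20000 UMIs the enzyme lines cross.

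The cell cycle phases and the nuclear RNA MALAT1 moved with these levels as well. HIF-only targets summed to 664 UPM in G1, 527 in S and 493 in G2M in the 4B4 library, and to 580 UPM in G1, 401 in S and 404 in G2M in the control library. Within G1 the log2 ratio of the HIF-only sum was 0.20, below the 0.31 of all kept cells, and that of the enzyme sum was 0.29. VEGFA was at 95.8 UPM in 4B4 G1 cells and 71.5 UPM in control G1 cells, against 71.8 UPM in 4B4 G2M cells and 40.1 UPM in control G2M cells, so the control cells in G1 stood closest to their 4B4 counterparts. The enzymes ran against MALAT1: they summed to 14453 UPM in the 608 4B4 cells with MALAT1 under 5000 UPM and to 7336 UPM in the 432 4B4 cells with over 20000 UPM, and to 11046 and 7469 UPM in 1341 and 841 control cells of these classes. The log2 ratio of the enzyme sum was 0.39 in the class under 5000 UPM and -0.03 in that over 20000 UPM. The HIF-only targets had 618 and 722 UPM in the same 4B4 classes and 465 and 649 UPM in the control classes, with log2 ratios of 0.41 and 0.15. MALAT1 over all kept cells was at 12606 UPM in the 4B4 library and 12147 UPM in the control library.

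Mitochondrial share gave a like contrast. In cells with under 5% mitochondrial UMIs the enzymes summed to 14784 UPM in the 4B4 library and 12630 UPM in the control library, and in cells with 10% to 20% to 8841 UPM in the 4B4 library and 8281 UPM in the control library. The log2 ratio of the enzyme sum was 0.23, 0.14 and 0.09 in the classes under 5%, 5% to 10% and 10% to 20%. That of the HIF-only sum was 0.46, 0.44 and 0.20. Cells under 5% numbered 290 in the 4B4 library and 263 in the control library, which is 20.9% of kept 4B4 cells and 7.73% of kept control cells. The part of this makeup in the pooled ratios was not tested.

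To see whether enzymes and HIF-only targets were high in the same cells, each cell was thinned to 17000 UMIs, which left 1311 4B4 cells and 3099 control cells. Cells of one library share its preparation and, after thinning, a fixed total, so Pearson correlations over cells are given as descriptions. The abundant enzymes varied together. The correlation of GAPDH with PKM was 0.77 in the 4B4 library and 0.72 in the control library, that of TPI1 with GAPDH 0.75 and 0.63, and that of PGK1 with ENO1 0.63 and 0.52. The same enzymes ran with the summed ribosomal protein genes and against MALAT1, to different extents. GAPDH had 0.56 and -0.51 in the 4B4 library, and 0.50 and -0.36 in the control library. PGK1 had 0.20 and -0.30 in the 4B4 library, and 0.10 and -0.11 in the control library.

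The other members ranged widely in their correlation with the summed other enzymes. ALDOA had 0.43 in the 4B4 library and 0.37 in the control library, SLC16A3 0.35 and 0.32, ALDOC 0.33 and 0.30, ENO2 0.27 and 0.22, BNIP3 0.27 and 0.28, CA9 0.25 and 0.24, and DDIT4 0.23 and 0.14. At the low end, HK1 had a correlation of -0.17 with the summed other enzymes in the 4B4 library and -0.11 in the control library, PFKFB3 had -0.22 and -0.15, and HIF1A -0.26 and -0.14. HIF-only targets varied together only weakly, with a median of 0.11 over their 36 pairs in the 4B4 library and 0.096 in the control library. The pair BNIP3 and NDRG1 had 0.30 in the 4B4 library and 0.19 in the control library. Correlations this low in sparse counts are no finding by themselves. The summed enzymes and the summed HIF-only targets had a correlation of 0.16 in the 4B4 library and 0.20 in the control library.

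**Figure D4:**
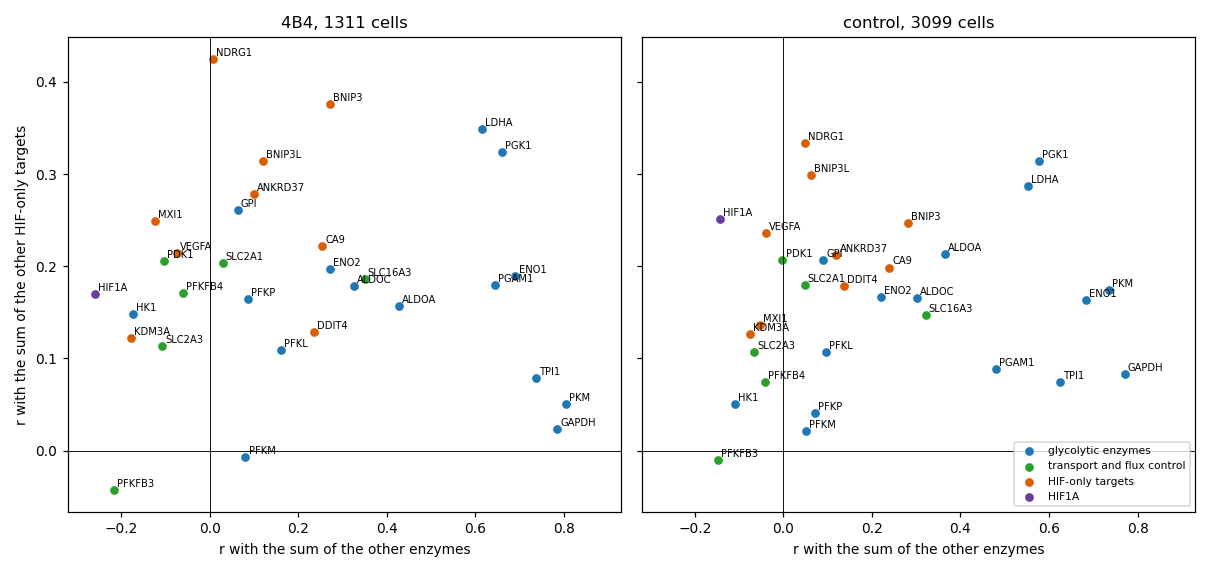
Pearson correlation over cells thinned to 17000 UMIs of each measured member with the sum of the other enzymes (horizontal) and with the sum of the other HIF-only targets (vertical), in 1311 4B4 cells (left) and 3099 control cells (right). GAPDH and TPI1 lie at the right and low, LDHA and PGK1 at the right and high, and NDRG1 and the other HIF-only targets near the middle or left.

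LDHA and PGK1 followed both sums. LDHA had a correlation of 0.61 with the other enzymes and 0.35 with the HIF-only sum in the 4B4 library, and 0.55 and 0.29 in the control library. PGK1 had 0.66 and 0.32 in the 4B4 library, and 0.58 and 0.31 in the control library. GAPDH had 0.78 with the other enzymes but 0.02 with the HIF-only sum in the 4B4 library, and 0.77 and 0.08 in the control library. GPI was the reverse, with 0.06 and 0.26 in the 4B4 library and 0.09 and 0.21 in the control library.

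Ordering cells by the HIF-only sum gave the same picture in levels. Between the quintiles richest and poorest in HIF-only UMIs, of 263 and 262 cells in the 4B4 library and 620 and 619 in the control library, the summed enzymes were at 12524 and 10008 UPM in the 4B4 library and 10445 and 8550 UPM in the control library. PDK1 differed most among the measured members outside the HIF-only group. It was at 21.0 UPM in the richest and 6.96 UPM in the poorest 4B4 quintile, a log2 ratio of 1.59 (1.00 to 2.23), and at 18.4 and 6.18 UPM in the control quintiles, 1.58 (1.16 to 2.00). SLC2A1 came next, at 54.1 and 22.2 UPM in the 4B4 quintiles and 68.0 and 33.9 UPM in the control quintiles, with log2 ratios of 1.28 and 1.00. SLC2A1, which was the smaller in the 4B4 library as a whole, was thus larger in the cells richest in HIF-only UMIs in both libraries.

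Among the enzymes, ALDOA had log2 ratios between these quintiles of 0.86 in the 4B4 library and 0.93 in the control library, ALDOC 0.80 and 0.99, ENO2 0.80 and 0.75, and GPI 0.88 and 0.64. LDHA had 0.85 in the 4B4 library and 0.56 in the control library, and PGK1 0.73 in the 4B4 library and 0.67 in the control library. The values were smaller for GAPDH, at 0.06 in the 4B4 library and 0.12 in the control library, and for TPI1, at 0.17 and 0.14, while PKM had 0.18 in the 4B4 library and 0.37 (0.34 to 0.40) in the control library. HIF1A had 0.59 in the 4B4 library and 0.86 in the control library. PFKFB3, though a known HIF target in other cells, had -0.34 (-0.79 to 0.11) in the 4B4 library and -0.03 (-0.31 to 0.25) in the control library. The richest quintile held shallower cells, with a median of 59355 UMIs against 76747 in the poorest 4B4 quintile and 29387 against 37473 in the control quintiles, and more MALAT1, with a median of 12172 against 5456 UPM in the 4B4 library and 14539 against 5310 UPM in the control library. It also held more cells called G1, 95.1% against 79.0% in the poorest 4B4 quintile and 85.5% against 50.7% in the control quintiles. The part of depth, MALAT1 and phase in these ratios was not tested.

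**Figure D5:**
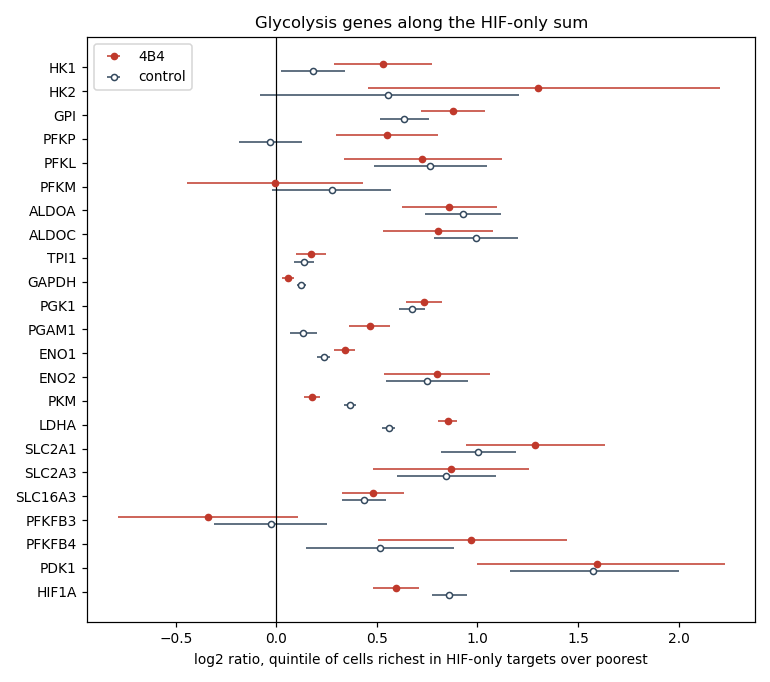
Log2 ratio of the quintile of cells richest in HIF-only UMIs over the poorest for enzymes, transport and flux control genes and HIF1A, in the 4B4 library (filled red) and the control library (open blue), with 95% counting intervals. PDK1 and SLC2A1 lie farthest right among measured genes in both libraries, and GAPDH and PFKFB3 lie near or left of 0.

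The number of HIF-only targets seen in a cell at equal depth had a median of 5 of 11 in the 4B4 library and 4 of 11 in the control library. At most 2 were seen in 5.72% of 4B4 cells (4.53% to 7.12%) and 13.3% of control cells (12.1% to 14.6%). At least 8 were seen in 4.35% of 4B4 cells (3.31% to 5.60%) and 2.61% of control cells (2.08% to 3.24%), and 1 cell, in the 4B4 library, showed 10. Both cultures were of 1 line, so no cell type without these genes was at hand to measure the background of free RNA in such shares.

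Among 2915 genes of at least 50 UPM in both libraries, those that followed the HIF-only sum most closely over cells were ranked by the smaller of their correlations. FAM162A, a mitochondrial protein induced in hypoxia, came first with 0.35 in both libraries. LUCAT1, a long non-coding RNA, had 0.43 in the 4B4 library and 0.31 in the control library, and PLOD2, a collagen lysyl hydroxylase, had 0.33 and 0.31. P4HA1 had 0.29 in the 4B4 library and 0.31 in the control library. The next were HPCAL1, CTSB, C4orf3, GBE1, BHLHE40 and FOS, down to 0.20 in the 4B4 library and 0.19 in the control library for FOS. The median over all 2915 genes was -0.0032 in the 4B4 library and -0.0065 in the control library.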

How the data were processed

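The values deposited by the authors are raw UMI counts by gene and barcode, with no normalization. The submitters' processing notes name Cell Ranger 7.1.0, Seurat 5.0.1 and GRCh38. No source used here gives the annotation, the strand setting or whether intronic reads were counted. Groups were taken from the treatment labels. Barcodes of 1000 genes or more with mitochondrial UMIs at 20% or less were kept. Doublets were not called or removed. Sums over these cells were scaled to 1000000 UMIs of the library (UPM). Intervals at 95% are exact Poisson for levels and Clopper-Pearson for shares and, conditionally, for ratios, and cover counting error only. With 1 library per group no p-value was computed. A gene was called at a ratio of at least 1.5, its interval on the same side of 1 and at least 5 UPM in either library. With equal weight per cell or per phase no counting interval was made, so calls there used the ratio and the floor alone. Shares, phases and correlations used cells thinned to 17000 UMIs, which left out 74 4B4 cells and 303 control cells as too shallow. Phases were called with scanpy 1.11.5 from 43 S and 54 G2M genes. Calls and intervals were run on simulated Poisson counts with 2-fold changes put in. These counts follow the same model as the intervals, so the run checked the code and not the spread between cells or cultures.

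The members and the gene lists were chosen with earlier results of these data known. All members are named. Of each further list the up to 4 measured genes with the largest absolute log2 ratio are named, and the 10 genes that best followed the HIF-only sum. Of these lists, 1 is not reported here. LDHB was named as the partner of LDHA, and some genes that overlap a member were named beside it. Alternatives were no cell filter, a stricter one (2000 genes or more, mitochondrial UMIs at 10% or less), thinned cells, equal weight per cell, TMM scaling from edgeR 4.0.16, a total without mitochondrial and ribosomal protein genes, G1 cells, equal weight per phase, 2 depth classes, no top 1% of cells, cells with at most 1% MALAT1, a difference of 25%, a ratio of 2 and a floor of 20 UPM. The class of 60000 to 120000 UMIs was added after seeing the data. Positions came from GENCODE release 29, which matched all 34 members, and promoter windows from RefSeq.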

Additional observations from a re-analysis of the deposited data

How the results depend on the processing

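Counts of called members moved with the choice of cells and of the ratio. The 1 enzyme called became 2 with stricter cell limits and in cells with at most 1% MALAT1, 3 in cells of 20000 to 60000 UMIs, 0 in G1 cells, 7 at a difference of 25% and 0 at a ratio of 2. The 1 HIF-only target called became 2 with stricter cell limits and with cells of equal weight, 3 in cells of 20000 to 60000 UMIs, 5 in cells of 60000 to 120000 UMIs, 0 in G1 cells, 4 at a difference of 25% and 0 at a ratio of 2. The 2 members called higher became 4 with stricter cell limits, 5 with cells of equal weight (adding SLC2A3, PFKFB4 and MXI1), 3 with thinned cells (adding PFKFB4) and in cells with at most 1% MALAT1, 0 in G1 cells, 6 and 7 in the same depth classes, 14 at a difference of 25% and 0 at a ratio of 2, and the 0 called lower became 1 at a difference of 25%. Of all measured genes 2.1% were called higher over all kept cells, 2.91% with stricter limits, 3.85% with equal weight, 2.19% with thinned cells, 3.15% at low MALAT1, 1.58% in G1 cells, 2.3% and 3.85% in the lower and upper depth class, 8.94% at a difference of 25% and 0.379% at a ratio of 2. With cells of equal weight the calls and their background of 3.85% rest on the ratio and the floor alone, without a counting interval. The cause of these changes was not tested. Over the 12 settings that change ratios, 24 to 29 of the 31 measured members were above 0, the enzyme median ran from 0.20 to 0.45 and the HIF-only median from 0.16 to 0.64. In cells with at most 1% MALAT1 the median of all measured genes was -0.13, against -0.0089 over all kept cells, so the enzyme median of 0.45 there is relative to a lower centre. HK1, PFKP, PGAM1, ENO1, SLC2A3, PFKFB3, PDK1, DDIT4, HK2, ADM and EGLN3 changed sign in at least 1 setting. Depth limits ADM, with 47 UMIs in the 4B4 library and 68 in the control library, and the S and G2M classes, with 81 and 86 4B4 cells against 417 and 616 control cells. No paired analysis was possible because each group had 1 library.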

Other observations

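The members also differed in how unevenly their UMIs were spread over cells. At equal depth the ratio of variance to mean over cells was 3.40 for NDRG1 and 3.30 for BNIP3 in the 4B4 library, and 3.12 for NDRG1 and 2.62 for BNIP3 in the control library. Those of VEGFA were 2.27 in the 4B4 library and 2.02 in the control library, and those of SLC2A3 2.05 in the 4B4 library and 2.11 in the control library. The median over all measured genes was 1.198 in the 4B4 library and 1.16 in the control library, and this ratio grows with the level of a gene. GAPDH, the most abundant member, had 30.1 in the 4B4 library and 17.4 in the control library, and ENO1 had 5.86 in the 4B4 library and 5.26 in the control library. The 1% of cells holding the most of a member had 42.6% of the UMIs of ADM in the 4B4 library and 60.3% in the control library, and 14.5% of those of EGLN3 in the 4B4 library and 24.7% in the control library, where both were below 5 UPM. UMIs this few raise such a share however they are spread. The ratio of variance to mean was 0.99 for ADM in both libraries. That of EGLN3 was 1.10 in the 4B4 library and 1.29 in the control library.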
